A study of Homo sapiens with 4 samples.

Results

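Aminoacyl-tRNA synthetases join each amino acid to its tRNA and so feed every ribosome of the cell. Transcripts of 37 synthetase genes were compared in HepG2 cells with and without inhibition of CDK4 and CDK6. The genes were taken by symbol: a single letter followed by ARS, alone or with a closing 1 or 2, together with FARSA, FARSB, EPRS, EPRS1 and PARS2. Counts of a repeated symbol were summed. The rule used no measured value and found 37 of the 24462 symbols in the tables. Of these, 20 were cytosolic enzymes and 17, whose symbols end in 2, were mitochondrial ones. All 37 passed the filter of 10 reads in either library compared, in every comparison.

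HepG2 is an established human liver cancer line, labelled as hepatocellular carcinoma and grown in RPMI medium with serum and antibiotics in every condition. There were 4 libraries: cells given the solvent DMSO, cells given PD-0332991 (palbociclib, a small-molecule inhibitor of CDK4 and CDK6), cells given a scrambled siRNA, and cells transfected with siRNAs against CDK4 and CDK6 (CDK4/6 KD). Each condition had 1 library, so no difference between conditions had a replicate check, and a value compares libraries of a single line. The dose of PD-0332991 and the times at which these cells were harvested were not given in the sources used here. The libraries were QuantSeq libraries, in which a read marks the 3′ end of a polyadenylated transcript, so levels of different genes can be set side by side without a correction for transcript length. Levels are given as CPM, the reads of a gene relative to all reads of the library after TMM scaling. A fold change is the ratio of such levels with 0.5 reads added to each library, and the 95% interval given with it is exact (Clopper-Pearson) and covers counting error only.

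Cytosol and mitochondria each translate with their own set of synthetases, although both sets are encoded in the nucleus. In the cytosol, 8 of the enzymes (EPRS, IARS, LARS, MARS, QARS, RARS, KARS and DARS) sit together in the multisynthetase complex on the scaffold proteins AIMP1, AIMP2 and EEF1E1. EPRS charges tRNAs with glutamate as well as proline, FARSA and FARSB are the subunits of the phenylalanine enzyme, and GARS and KARS each make a cytosolic and a mitochondrial enzyme from the same gene. Many cytosolic synthetase genes are known targets of ATF4, the transcription factor that cells raise when amino acids run short or unfolded proteins build up. A list of 13 such cytosolic genes was used here: AARS, CARS, EPRS, GARS, IARS, LARS, MARS, NARS, SARS, TARS, VARS, WARS and YARS. It was chosen with earlier results of these data known. The other 7 cytosolic genes were DARS, FARSA, FARSB, HARS, KARS, QARS and RARS.

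ATF4 binds DNA together with C/EBP proteins at a composite element with the core TGATGNAA, which reads TTNCATCA on the opposite strand. Promoter windows from 250 bases before to 50 bases after the transcription start (RefSeq, GRCh38.p14) were matched for 30 of the 37 genes, 16 cytosolic and 14 mitochondrial. The genes without a matched window included DARS, LARS, VARS, YARS, AARS2 and VARS2. On either strand, the core was found in 8 of the 30 genes (26.7%), against 4.46% of the 27305 genes in the promoter table. The 8 stretches are shown because they separate the cytosolic genes into those with and without this sequence. Each is 30 bases on the strand of the gene, with the match in capitals.
AARS: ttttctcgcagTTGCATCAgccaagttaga
CARS: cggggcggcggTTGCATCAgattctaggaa
GARS: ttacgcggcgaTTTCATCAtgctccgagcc
IARS: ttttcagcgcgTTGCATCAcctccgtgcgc
MARS: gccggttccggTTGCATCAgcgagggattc
NARS: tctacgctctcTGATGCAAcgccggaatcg
TARS: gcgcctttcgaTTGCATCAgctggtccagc
YARS2: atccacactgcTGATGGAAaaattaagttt

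In GRCh38.p14 these stretches lie at chr16:70289675-70289704 (minus strand, AARS), chr11:3057407-3057436 (minus, CARS), chr7:30594834-30594863 (plus, GARS), chr9:92293692-92293721 (minus, IARS), chr12:57488053-57488082 (plus, MARS), chr18:57621804-57621833 (minus, NARS), chr5:33440956-33440985 (plus, TARS) and chr12:32756076-32756105 (minus, YARS2). The letters TTGCATCA or their reverse complement stood in 6 of the 8, which is 20% of the matched synthetases against 1.08% of all genes in the table. The match began between 33 bases before and 15 bases after the annotated start in 6 of the 7 cytosolic genes, and 187 bases before it in AARS. Of the 10 listed ATF4 targets with a window, 7 held the core (70.0%), of the 6 other cytosolic genes 0 did, and of the 14 mitochondrial genes 1 did (7.14%). A match is a description of these letters and does not show that a factor binds there.

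Library totals ran from 8983848 to 11176880 reads, with 10 reads or more for 12780 to 13257 genes. Both siRNA targets were lower in CDK4/6 KD, CDK4 at 71.9 CPM against 354 with scrambled siRNA and CDK6 at 129 against 536. After PD-0332991, which acts on the proteins, CDK4 was at 257 CPM and CDK6 at 479, against 301 and 515 in DMSO. All 10 liver markers were detected in every library, with a summed level of 17440 to 22299 CPM, while 4 endothelial markers summed to at most 0.467 CPM and 5 leukocyte markers to between 8.04 and 15.5. The 16 keratinocyte markers summed to between 209 and 371 CPM, with 0 to 4 of them at 0 in a library. SFN and KRT10 made up most of these sums. Of the 8 that could be compared after PD-0332991, 7 were higher than in DMSO and 1, SFN, was lower (134 to 61.8 CPM). The largest fold changes of these 8 were those of KRT5, from 0.219 CPM (2 reads) in DMSO to 12.4 after PD-0332991, and KRT14, from 0.985 to 27.3. With scrambled siRNA and in CDK4/6 KD, KRT5 was at 1.21 and 3.80 CPM and KRT14 at 2.90 and 6.54. After PD-0332991 KRT10 had a fold change of 1.16. TP63 had 1 read and DSG3 2 reads both there and in DMSO. The 5 fibroblast markers summed to 47.1 CPM in DMSO, 77.0 after PD-0332991, 8.50 with scrambled siRNA and 22.3 in CDK4/6 KD. A list of 10 proliferation genes was lower in 10 of 10 cases in each arm, with a median log2 fold change of -1.25 in CDK4/6 KD and -2.95 after PD-0332991. Between the controls it was lower in 10 of 10 cases as well, with a median of -0.57 from DMSO to scrambled siRNA. All genes compared were near evenly split, with 49.7% higher in CDK4/6 KD, 51.6% after PD-0332991 and 50.7% between the controls. The part of these shifts in the synthetase values was not tested.

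Synthetase transcripts took 0.312% of the reads in DMSO, 0.390% after PD-0332991, 0.399% with scrambled siRNA and 0.410% in CDK4/6 KD. DMSO therefore stood apart from the other 3 libraries, its control counterpart included. Behind these shares were 28425 to 45086 synthetase reads a library and up to 4293 reads a gene. Cytosolic levels summed to 2675 CPM in DMSO, 3468 after PD-0332991, 3756 with scrambled siRNA and 3615 in CDK4/6 KD. Mitochondrial levels summed to 436, 379, 415 and 368 CPM in the same order, so that the cytosolic sum was lowest and the mitochondrial sum highest in DMSO. In such bulk libraries, fewer cells with a transcript and less of it per cell cannot be told apart.

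**Figure D1:**
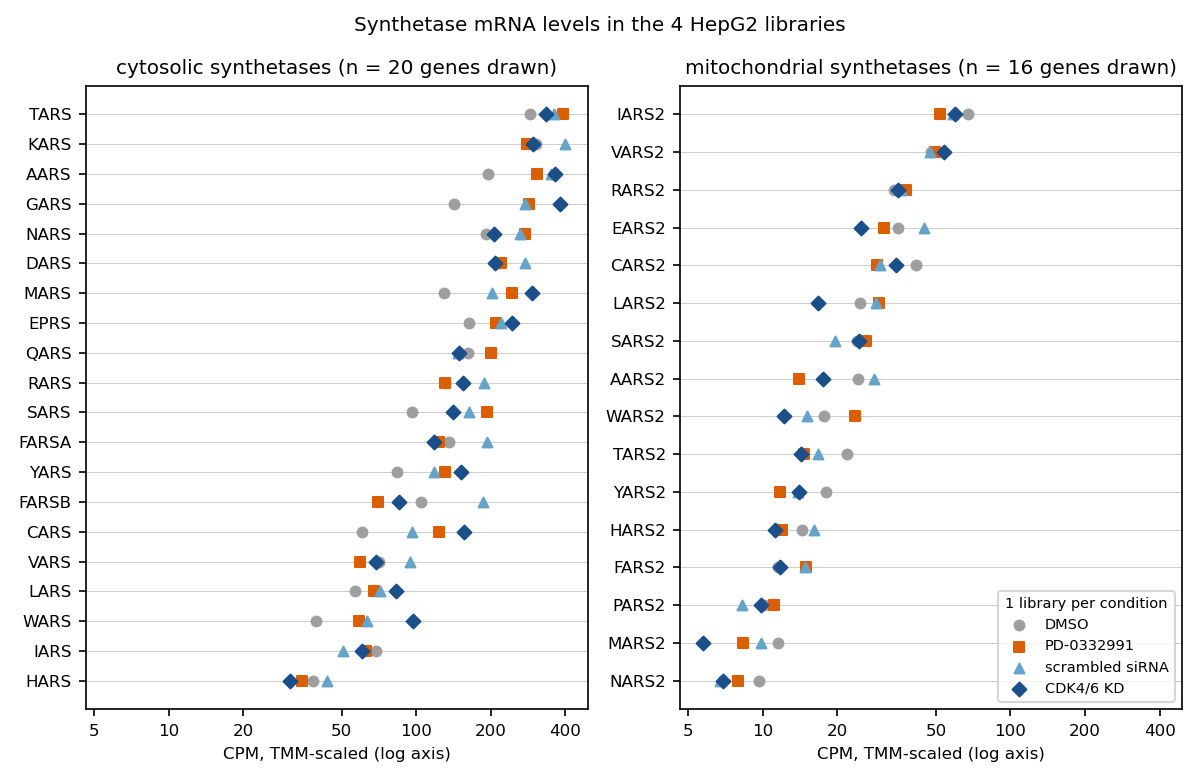
Level of each of 36 synthetases in CPM (log axis), cytosolic genes on the left and mitochondrial genes on the right, with a marker for each of the 4 libraries (1 library per condition, no error bars). Cytosolic genes lay between 30.9 CPM (HARS in CDK4/6 KD) and 399 CPM (KARS with scrambled siRNA), and mitochondrial genes between 5.74 CPM (MARS2 in CDK4/6 KD) and 67.6 CPM (IARS2 in DMSO).

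TARS, the threonine enzyme, had the highest mean level of the cytosolic genes, with 288 CPM in DMSO, 393 after PD-0332991, 359.5 with scrambled siRNA and 333 in CDK4/6 KD. KARS, the lysine enzyme, was close behind it, with 304 CPM in DMSO, 280.3 after PD-0332991, 399 with scrambled siRNA and 295 in CDK4/6 KD. HARS, the histidine enzyme, was the lowest cytosolic gene, at 38.4, 34.6, 43.5 and 30.9 CPM in that order. The order of TARS and KARS was not the same in every library, since KARS led in DMSO and with scrambled siRNA. Of the mitochondrial genes, IARS2, for isoleucine, had the highest mean, with 67.6 CPM in DMSO, 52.1 after PD-0332991, 58.8 with scrambled siRNA and 59.5 in CDK4/6 KD. NARS2, for asparagine, had the lowest, at 9.63, 7.91, 6.73 and 6.89 CPM, from 72 to 88 reads. The least abundant cytosolic gene was thus above most mitochondrial genes, but below IARS2 and VARS2 in every library.

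Whether knockdown of CDK4 and CDK6 altered the synthetases was asked by comparing CDK4/6 KD with scrambled siRNA. The cytosolic genes split evenly, 10 higher and 10 lower, and by the ATF4 list 9 of the 13 listed genes were higher and 6 of the 7 others were lower. Among all genes compared, 49.7% were higher. The median log2 fold change was 0.21 over the listed genes, -0.44 over the other cytosolic genes and -0.22 over the 17 mitochondrial genes, against -0.0036 over all 13617 genes compared. For 8 of the 13 listed genes the whole counting interval lay above 1 and for 4 (NARS, SARS, TARS and VARS) below it, while for 6 of the 7 others it lay below 1. Over all genes compared, the interval lay above 1 for 30% and below 1 for 31.9%. Intervals were narrower for the cytosolic genes than for all genes, with median limits of 0.913 to 1.025 against 0.812 to 1.22. These shares are therefore not compared at equal depth. Of the 37, 2 were at least 1.5-fold higher (5.41%) where 19.4% of all genes were, and 6 were at least 1.5-fold lower (16.2%) where 17.4% of all genes were. Scaled by total counts the split was 3 higher and 5 lower, and against DMSO it was 6 higher and 3 lower. The number of large changes was therefore not above that of genes at large. Nearest to the 1.5-fold limit were WARS inside it (fold change: 1.54) and MARS outside it (fold change: 1.45).

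CARS, the cysteine enzyme, was the synthetase with the highest fold change in CDK4/6 KD, with 60.2 CPM in DMSO, 123 after PD-0332991, 95.8 with scrambled siRNA and 156 in CDK4/6 KD (1.63-fold, interval 1.51 to 1.76). WARS, the tryptophan enzyme and an interferon-induced gene, followed with 39.5, 58.9, 63.0 and 97.1 CPM (fold change: 1.54, interval 1.40 to 1.70). Both were highest in CDK4/6 KD and lowest in DMSO, with the scrambled library between. Of 20 interferon-stimulated genes, 14 could be compared in CDK4/6 KD and gave a median log2 fold change of 0.092, with 7 higher and 7 lower, and the summed level of all 20 was 249 CPM with scrambled siRNA and 212 in CDK4/6 KD. The interferon list thus held as many higher as lower members. GARS, the glycine enzyme, stood at 142 CPM in DMSO, 284 after PD-0332991, 274 with scrambled siRNA and 379 in CDK4/6 KD (1.38-fold, interval 1.32 to 1.45). YARS, for tyrosine, stood at 83.8, 131, 117 and 151 CPM (fold change: 1.29, interval 1.20 to 1.39), and EPRS at 163, 210.0, 219.9 and 243 CPM (fold change: 1.11, interval 1.05 to 1.17). All 5 of these genes had their highest level in CDK4/6 KD. AARS, the alanine enzyme, differed by less than its counting error in this comparison, with 195 CPM in DMSO, 308 after PD-0332991, 349 with scrambled siRNA and 362 in CDK4/6 KD (1.04-fold, interval 0.993 to 1.09).

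MARS, the methionine enzyme, had 129 CPM in DMSO, 244 after PD-0332991, 203 with scrambled siRNA and 293 in CDK4/6 KD (1.45-fold over scrambled siRNA, interval 1.37 to 1.53). Its annotated 3′ end overlaps that of DDIT3, an ATF4-induced gene on the opposite strand, and the strand setting of the authors' counting was not given in the sources used here. Reads of MARS were 1.65, 1.62, 1.54 and 1.53 times those of DDIT3 in DMSO, PD-0332991, scrambled siRNA and CDK4/6 KD. The genes moved by nearly the same factor in each comparison, and without strand their reads cannot be told apart, so the values of MARS are uncertain. In all, 10 of the 37 genes had another annotated gene over their last 500 bases (4 cytosolic and 6 mitochondrial), among them HARS, WARS, AARS2, HARS2, MARS2, NARS2 and YARS2. In DMSO, ZMAT2, on the same strand as HARS2, had 2404 reads against 131 for HARS2. On the opposite strand, DNM1L had 634 against 165 for YARS2, and WDR55 had 269 against 351 for HARS. TMEM151B, opposite AARS2, had at most 9 reads in any library. The values of HARS, HARS2 and YARS2 are therefore uncertain as well. A further uncertainty is that 11 of the 37 have a named pseudogene, KARS with 3 and CARS with 2, and how reads shared with a copy were counted was not given in the sources used here.

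The lower cytosolic genes in CDK4/6 KD were led by the subunits of the phenylalanine enzyme. FARSB, the beta subunit (GENCODE 29, GRCh38, chr2:222570536-222656337, minus strand), had 105 CPM in DMSO, 70.1 after PD-0332991, 187 with scrambled siRNA and 84.8 in CDK4/6 KD (0.455-fold, interval 0.420 to 0.491). FARSA, the alpha subunit, had 136, 124, 194 and 118 CPM (fold change: 0.611, interval 0.570 to 0.655). Both subunits were highest with scrambled siRNA, above DMSO by 1.78-fold and 1.42-fold, and both were lower in each inhibited library than in its own control. Against DMSO in place of scrambled siRNA, CDK4/6 KD gave a fold change of 0.809 for FARSB and 0.870 for FARSA, which is closer to 1 for both. KARS was lower in CDK4/6 KD as well (fold change: 0.740, interval 0.707 to 0.774), and so was HARS (fold change: 0.710, interval 0.616 to 0.817). DARS, RARS and the listed VARS had fold changes of 0.755, 0.826 and 0.729. QARS, the glutamine enzyme, was level at a fold change of 1.01, so 6 of the 7 genes outside the ATF4 list were lower and the seventh was not different beyond counting error.

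Of the 17 mitochondrial genes, 4 were at least 1.5-fold lower in CDK4/6 KD (23.5%, against 17.4% of all genes) and 0 were at least 1.5-fold higher (19.4% of all genes). EARS2, which charges mitochondrial tRNA with glutamate, had 35.1 CPM in DMSO, 30.8 after PD-0332991, 44.6 with scrambled siRNA and 24.9 in CDK4/6 KD (0.559-fold, interval 0.481 to 0.649). LARS2, for leucine, had 24.6, 29.4, 28.7 and 16.7 CPM (fold change: 0.583, interval 0.483 to 0.700). Both were lowest in CDK4/6 KD, below DMSO as well. MARS2, for methionine, had 11.5, 8.35, 9.81 and 5.74 CPM (fold change: 0.587, interval 0.423 to 0.805, from 105 and 65 reads). AARS2, for alanine, had 24.2, 14.1, 28.0 and 17.5 CPM (fold change: 0.625, interval 0.519 to 0.749). AARS2 thus lay lower in each inhibited library than in both controls. HARS2, for histidine, had 14.3 CPM in DMSO, 12 after PD-0332991, 16.1 with scrambled siRNA and 11.2 in CDK4/6 KD (0.699-fold, interval 0.551 to 0.883). ZMAT2, which overlaps its 3′ end on the same strand, had a fold change of 0.790. Over 9 of the 17 genes the interval held 1, so at 65 to 674 reads a gene in CDK4/6 KD most of the smaller differences were not detectable.

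**Figure D2:**
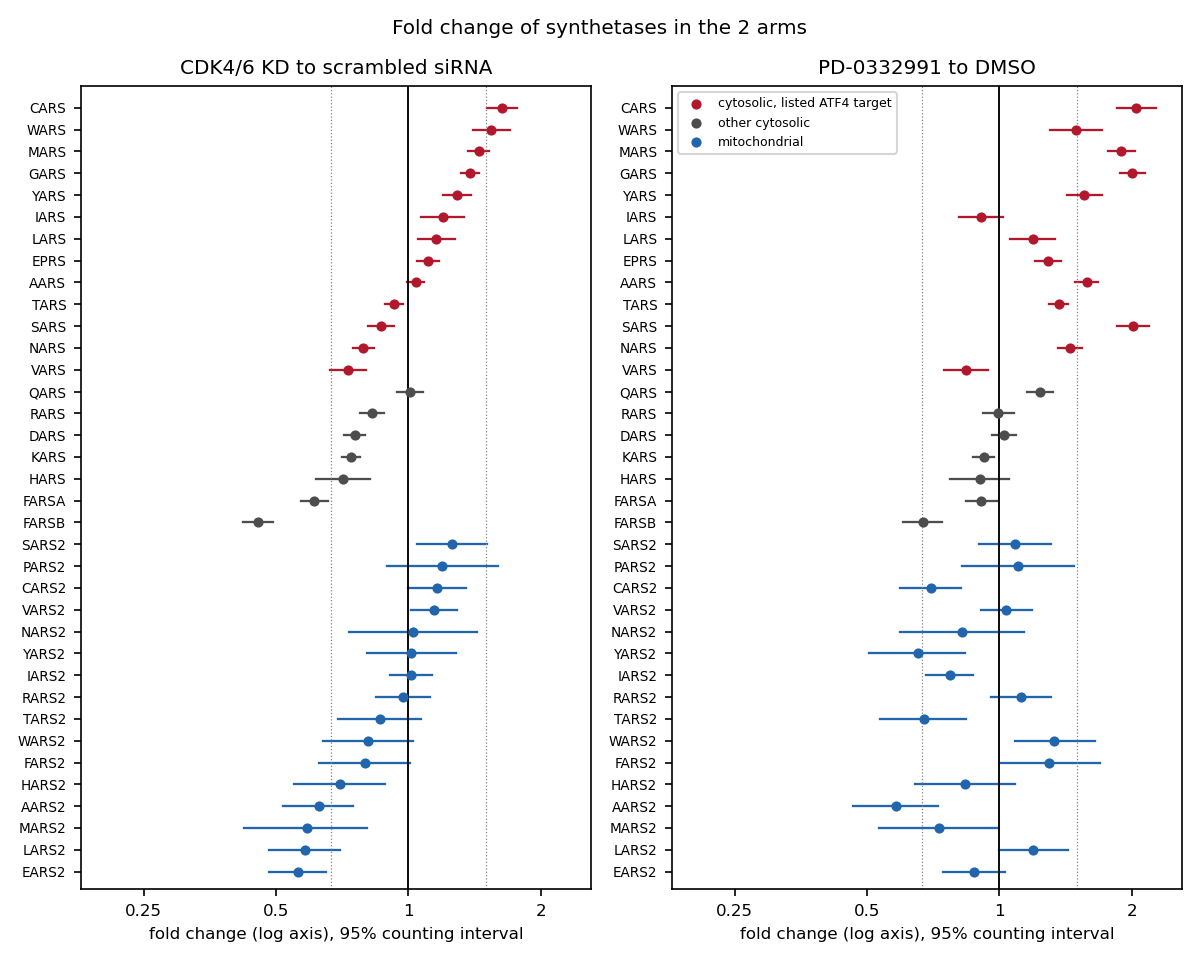
Fold change of each of 36 synthetases (log axis, point) with its 95% counting interval (line) for CDK4/6 KD to scrambled siRNA on the left and PD-0332991 to DMSO on the right, with dotted lines at 1.5-fold in either direction. Listed ATF4 targets (red) reached 1.63 on the left and 2.04 on the right, other cytosolic genes (grey) went down to 0.455 and 0.668, and mitochondrial genes (blue) down to 0.559 and 0.582.

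The same question was put to the drug by comparing PD-0332991 with DMSO. Here 13 of the 20 cytosolic genes were higher (65.0%) and 10 of the 17 mitochondrial genes were lower. The share of mitochondrial genes that were higher was 41.2%, against 51.6% of all genes compared. The median log2 fold change was 0.57 over the 13 listed ATF4 targets, of which 11 were higher, -0.12 over the 7 other cytosolic genes and -0.26 over the mitochondrial genes, against 0.018 over all 13443 genes compared. Of the 37, 6 were at least 1.5-fold higher (16.2%), where 16.8% of all genes were, and 3 were at least 1.5-fold lower (8.11%), where 15.1% of all genes were. With quantile normalization the split was 8 higher and 2 lower, and against scrambled siRNA it was 1 higher and 5 lower. The 6 higher genes were all listed ATF4 targets, and the 3 lower genes were all mitochondrial. Nearest to the limit were YARS2 inside it (fold change: 0.652) and FARSB outside it (fold change: 0.668).

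CARS again had the highest fold change after PD-0332991 (2.04, interval 1.85 to 2.27). SARS, the serine enzyme, had 95.9 CPM in DMSO, 193 after PD-0332991, 163 with scrambled siRNA and 141 in CDK4/6 KD (2.01-fold after PD-0332991, interval 1.85 to 2.18). GARS had a fold change of 2.01 (interval 1.88 to 2.15), MARS of 1.89 (1.76 to 2.03), AARS of 1.58 (1.49 to 1.68) and YARS of 1.56 (1.42 to 1.71). These 6 genes were the only synthetases at least 1.5-fold above DMSO. WARS was just below that limit (fold change: 1.49, interval 1.30 to 1.71), and NARS and TARS were at 1.45 and 1.36. IARS and VARS were the listed genes that were lower, at 0.908 and 0.839, with 1 inside the interval of IARS.

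Of the cytosolic genes outside the list, FARSB was the lowest after PD-0332991 (fold change: 0.668, interval 0.604 to 0.739). FARSA (fold change: 0.908, interval 0.837 to 0.985) and KARS (fold change: 0.921, interval 0.872 to 0.972) were lower by less. HARS was within counting error of DMSO (fold change: 0.901, interval 0.771 to 1.05). These differences in FARSA and KARS were thus small beside those in CDK4/6 KD, though the difference between the arms was not tested.

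Of the mitochondrial genes, AARS2 was lower after PD-0332991 too (fold change: 0.582, interval 0.464 to 0.726), and so was YARS2, for tyrosine, with 18.1 CPM in DMSO, 11.8 after PD-0332991, 13.8 with scrambled siRNA and 14.0 in CDK4/6 KD (0.652-fold after PD-0332991, interval 0.505 to 0.835). YARS2 was highest in DMSO and did not differ from scrambled siRNA in CDK4/6 KD beyond counting error (fold change: 1.02, interval 0.807 to 1.28). IARS2 was lower after PD-0332991 (fold change: 0.770, interval 0.681 to 0.869) and level in CDK4/6 KD (1.01). EARS2, HARS2 and LARS2 had fold changes of 0.876, 0.836 and 1.19 after PD-0332991, each with 1 inside its interval. Without the 6 mitochondrial genes that share their 3′ end with another gene, among them AARS2 and YARS2, the mitochondrial median log2 fold change after PD-0332991 was 0.05 in place of -0.26, and in CDK4/6 KD it was -0.22 as before.

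The controls themselves differed in the synthetases. From DMSO to scrambled siRNA, 18 of the 20 cytosolic genes were higher, with a median log2 fold change of 0.47, and 11 of the 17 mitochondrial genes were lower, with a median of -0.20. Among all genes compared, 50.7% were higher. Of the 37, 7 were at least 1.5-fold higher (18.9%) where 13.4% of all genes were, and 0 were at least 1.5-fold lower where 15.7% of all genes were. The 7 were AARS, CARS, FARSB, GARS, MARS, SARS and WARS. AARS was 1.79-fold and GARS 1.94-fold above DMSO with scrambled siRNA, without any inhibition of CDK4 or CDK6. MARS was just inside the limit at 1.57 and RARS just outside it at 1.43. Listed and other cytosolic genes were both higher in this comparison, with medians of 0.49 and 0.39, so that these medians lay on the same side of 0, unlike in either arm. This comparison shares a library with each arm and is no replicate of either.

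**Figure D3:**
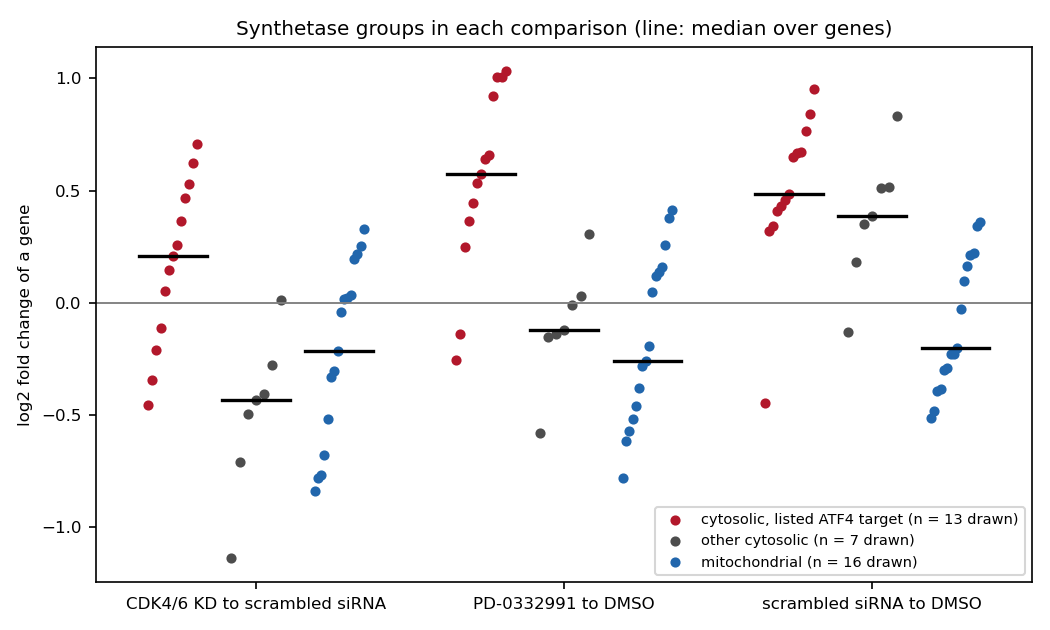
Log2 fold change of each of 36 synthetases (point) by group in 3 comparisons, with the median over all 37 genes by group as a black line. Medians of listed ATF4 targets (red), other cytosolic genes (grey) and mitochondrial genes (blue) were 0.21, -0.44 and -0.22 in CDK4/6 KD, 0.57, -0.12 and -0.26 after PD-0332991, and 0.49, 0.39 and -0.20 between the controls.

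The groups also differed in the order of the 4 libraries. DMSO was the lowest library for 11 of the 13 listed ATF4 targets (84.6%), for 0 of the 7 other cytosolic genes and for 2 of the 17 mitochondrial genes (11.8%), against 23.8% of all genes compared. CDK4/6 KD was the highest library for 8 of the 13 listed genes, against 24.7% of all genes, and scrambled siRNA was the highest for 6 of the 7 others, against 25.7% of all genes. The exceptions among the listed genes were IARS, lowest with scrambled siRNA, and VARS, lowest after PD-0332991. When each inhibited library was set against the control of the other arm, the listed genes gave a median log2 fold change of 0.58 for CDK4/6 KD to DMSO and of 0.07 for PD-0332991 to scrambled siRNA. The other cytosolic genes gave -0.12 and -0.51. The higher level of listed genes after PD-0332991 was thus a difference from DMSO and hardly one from the scrambled library, while the lower level of FARSB after PD-0332991 was larger against the scrambled library (fold change: 0.376).

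Of the 37, each arm read against its own control, 7 genes had intervals wholly above 1 in both: CARS, EPRS, GARS, LARS, MARS, WARS and YARS. Another 7 had intervals wholly below 1 in both, among them FARSA, FARSB, KARS, VARS, AARS2 and MARS2. The 7 higher genes were all listed targets, whereas of the 7 lower genes 1, VARS, was listed, 3 were other cytosolic genes and 3 were mitochondrial. Each 7 is 18.9% of the 37. Over the 13961 genes with at least 10 reads in any library, 11.2% lay above 1 in both arms and 13.3% below. Every synthetase had more than 50 reads in each library, and intervals narrow with depth, so these shares are not compared at equal depth. NARS, SARS and TARS had intervals on opposite sides of 1, above it after PD-0332991 and below it in CDK4/6 KD.

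In both arms, position in the multisynthetase complex gave medians that lay closer together than those of the ATF4 list. Between the controls they lay further apart. There the median log2 fold change was 0.37 in the complex and 0.59 outside it. For listed and other cytosolic genes it was 0.49 and 0.39. Both groupings were chosen with earlier results of these data known, so this order is a description only. The 8 enzymes of the complex gave a median log2 fold change of 0.080 in CDK4/6 KD and 0.14 after PD-0332991, and the 12 outside it -0.16 and 0.55. Within the complex, EPRS was higher and KARS lower in CDK4/6 KD, so that subunits of the same particle lay on opposite sides of 1. Of the scaffold proteins, AIMP1 had 148 CPM in DMSO, 145 after PD-0332991, 141 with scrambled siRNA and 198 in CDK4/6 KD (1.41-fold), AIMP2 had a fold change of 0.852 in CDK4/6 KD and 1.08 after PD-0332991, and EEF1E1 had 0.893 and 0.476. A list of 15 partners, which holds these scaffolds, factors that edit, mature, export or further modify tRNAs, and the additional threonine enzyme TARSL2, gave a median log2 fold change of -0.13 in CDK4/6 KD and -0.16 after PD-0332991. In CDK4/6 KD, 1 of the 15 was at least 1.5-fold higher (6.67%, against 19.4% of all genes) and 2 were lower (13.3%, against 17.4%). After PD-0332991 these counts were 0 (against 16.8% of all genes) and 3 (20%, against 15.1%). XPOT, the exporter of tRNA from the nucleus, had 84 reads in DMSO, 38 after PD-0332991, 44 with scrambled siRNA and 155 in CDK4/6 KD (fold changes: 3.30 in CDK4/6 KD and 0.457 after PD-0332991). It was thus high in a single library, CDK4/6 KD, and low in PD-0332991 and scrambled siRNA alike.

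The promoter sequence shown above gave a similar division to the ATF4 list, which overlaps it. The 7 cytosolic genes with the core gave a median log2 fold change of 0.26 in CDK4/6 KD, 0.66 after PD-0332991 and 0.65 between the controls. The 9 cytosolic genes with a window and without the core (EPRS, FARSA, FARSB, HARS, KARS, QARS, RARS, SARS and WARS) had -0.28, -0.0095 and 0.51. The division was not complete, since EPRS, QARS, SARS and WARS, without the core in this window, had intervals wholly above 1 after PD-0332991, and IARS, with the core, did not. ATF4 itself had 579 CPM in DMSO, 1352 after PD-0332991, 988 with scrambled siRNA and 1340 in CDK4/6 KD, and ASNS, the asparagine synthetase and a well known ATF4 target, had 63.3, 330, 119 and 381 CPM. DMSO was the lowest library for both, as for most listed synthetases. A list of 27 genes of the ATF4 response, which holds ATF4, ASNS and DDIT3 and no synthetase, gave a median log2 fold change of 0.62 in CDK4/6 KD, 0.93 after PD-0332991 and 0.45 between the controls. In CDK4/6 KD, 13 of the 26 compared were at least 1.5-fold higher (50%, against 19.4% of all genes) and 2 at least 1.5-fold lower. After PD-0332991, 18 of 25 were at least 1.5-fold higher (72.0%, against 16.8% of all genes), and between the controls 10 of 25 were (40.0%, against 13.4%). GDF15 and SLC7A5 were the members at least 1.5-fold lower in CDK4/6 KD (fold changes: 0.451 and 0.395). The listed synthetases therefore lay on the same side as this list in all 3 comparisons, with a smaller median in each arm. Between the controls the other cytosolic genes lay on that side as well, with a median of 0.39. Both lists were chosen with earlier results of these data known, so this is a description only. Any part of ATF4 in the synthetase values was not tested.

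Cytosolic and mitochondrial enzymes were then compared for the same amino acid, in 14 pairs. Glutamate, proline and phenylalanine, whose cytosolic enzymes are fused or made of subunits, and glycine and lysine, each with a gene shared by both compartments, were left out, and TARSL2, another cytosolic threonine enzyme with 63 to 92 reads, was not added to TARS. The cytosolic level exceeded the mitochondrial one by a median of 3.93-fold in DMSO, 5.81-fold after PD-0332991, 6.76-fold with scrambled siRNA and 6.85-fold in CDK4/6 KD. It was the larger in all 14 cases in 3 libraries and in 13 with scrambled siRNA, where IARS was at 0.860 times IARS2. The ratio was highest for NARS over NARS2 in DMSO (19.8) and for MARS over MARS2 in CDK4/6 KD (51.0). The ratio of MARS to MARS2 is uncertain, because MARS overlaps DDIT3. MARS2 had 65 reads in that library and another gene over its 3′ end. Within a pair, the cytosolic log2 fold change exceeded the mitochondrial one in 10 of 14 cases in CDK4/6 KD, by a median of 0.17, and in 11 of 14 after PD-0332991, by a median of 0.85. Between the controls it did so in 13 of 14, by a median of 0.67. The compartments thus moved apart mainly where DMSO was the control.

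The share of synthetase reads from mitochondrial genes needs no scaling between libraries and gave the same picture. It was 14.0% in DMSO (95% exact interval 13.6 to 14.4), 9.86% after PD-0332991 (9.55 to 10.2), 9.95% with scrambled siRNA (9.67 to 10.2) and 9.23% in CDK4/6 KD (8.97 to 9.50). The intervals of PD-0332991 and scrambled siRNA overlapped, and those of DMSO and CDK4/6 KD overlapped with no other.

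**Figure D4:**
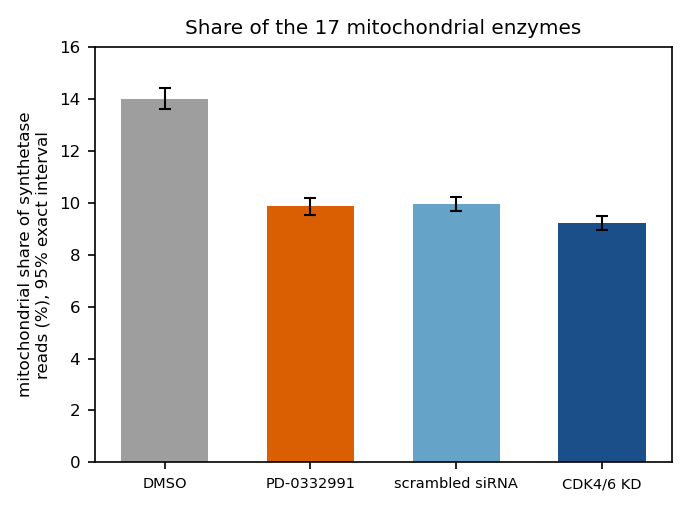
Share of synthetase reads that came from the 17 mitochondrial genes, in percent, as a bar for each library with the 95% exact binomial interval. The share was 14.0% in DMSO and between 9.23% and 9.95% in the other 3 libraries.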

How the data were processed

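RNA of 4 HepG2 conditions was read as 3′ ends (QuantSeq, single-end, 75 bases). The authors deposited raw counts per gene symbol, 1 table of 25737 entries per library. Their processing notes name hg19, Bowtie2 and edgeR. The annotation, counter and strand setting are not given in the sources used here. Here counts of repeated symbols were summed (286 symbols), and library sizes were scaled by TMM factors of 0.957 to 1.03 (edgeR 4.0.16, R 4.3.3). Fold changes used 0.5 added reads, a minimum of 10 reads in either library, and Clopper-Pearson intervals (scipy 1.17.1). These steps were tested on simulated counts with counting error alone and known library sizes. That check does not cover variation between cultures or the scaling. Reads carry no stated molecular identifiers. With 1 library per condition no test was possible, and a difference of 1.5-fold was the limit for counts. Alternatives were DESeq2 1.42.0 size factors, total counts, quantile normalization (limma 3.58.1), 5 added reads, other filters, the most counted entry, exchanged controls, a 2-fold limit, and leaving out GARS and KARS. Leaving out genes with a shared 3′ end was added after seeing the data. Members and lists (complex, ATF4 targets, partners, elongation factors, mitochondrial translation factors, ATF4 response, interferon, proliferation, cell types) were chosen with earlier results of these data known. Genes given in every library were those past 1.5-fold in either arm with at least 50 reads (at most 20), WARS, EPRS, GARS, KARS, HARS, HARS2, and the highest and lowest of each compartment. Other values were chosen after they were seen. Positions are from GENCODE 29 and RefSeq by symbol, not from the files. A single mitochondrial gene counts in the group values and is not reported here by itself.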

Additional observations from a re-analysis of the deposited data

Results flagged for a closer look

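For 3 of the 37 synthetases (8.11%) the counting intervals lay on opposite sides of 1 in the arms, higher after PD-0332991 than in DMSO and lower in CDK4/6 KD than with scrambled siRNA. The same held for 1694 of the 13099 genes compared in both arms (12.9%). The fold change in CDK4/6 KD divided by that after PD-0332991 was 0.545 for NARS (0.789 against 1.45). It was 0.430 for SARS (0.865 against 2.01). It was 0.680 for TARS (0.926 against 1.36). With 1 library per condition these differences were not tested. All 3 genes were lowest in DMSO, and against DMSO all 3 were higher in CDK4/6 KD as well, with fold changes of 1.08 for NARS, 1.47 for SARS and 1.16 for TARS.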

How the results depend on the processing

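Of the 66 recomputed group values, 54 stayed within the limits of the value in the report, and of the 352 recomputed fold changes of named genes 307 did. Some could not move: every synthetase had more than 50 reads in each library, so the other filters changed nothing. The repeated members VARS and VARS2 had reads in 1 entry, so taking the most counted entry altered library sizes only. Limits of a group median were medians of its members' limits, and the mitochondrial change after PD-0332991 from -0.26 to 0.05 lay within them. A changed split between higher and lower genes was not scored. Of the 45 exceptions among the genes, 32 came with the control of the other arm. With the control of the other arm, the median log2 fold change of the cytosolic genes was 0.22 in place of -0.049 for CDK4/6 KD and -0.080 in place of 0.34 for PD-0332991, a reversal. With that control, SARS (1.47) and TARS (1.16) were higher in place of lower in CDK4/6 KD, and AARS (0.882) was lower in place of higher after PD-0332991. EPRS (0.955) and WARS (0.935) went from above 1 to within counting error of it after PD-0332991, with intervals of 0.899 to 1.01 and 0.833 to 1.05. Total counts moved the cytosolic median in CDK4/6 KD to 0.055 and the median of all genes by 0.10. Members without another gene over their 3′ end gave a cytosolic median of -0.16 in CDK4/6 KD. At a 2-fold limit 1 synthetase was called in CDK4/6 KD in place of 8, and 4 after PD-0332991 in place of 9. With the whole interval past 1.5-fold these counts were 4 and 5. Without GARS and KARS the mitochondrial share was 16.4% in DMSO, 11.6% after PD-0332991, 11.9% with scrambled siRNA and 11.1% in CDK4/6 KD. No paired analysis was possible because each condition has 1 library. Depth limited the mitochondrial genes most, with 65 to 674 reads a gene in CDK4/6 KD.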

Other observations

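Elongation factors carry charged tRNAs to the ribosome and move it along the message. A list of 8 cytosolic genes held elongation factors and the kinase EEF2K, which is not an elongation factor. It gave a median log2 fold change of -0.070 in CDK4/6 KD, 0.42 after PD-0332991 and 0.069 between the controls. After the drug 7 of the 8 were higher (87.5%, against 51.6% of all genes), EEF2K and the low EEF1A2 (9 reads in DMSO and 24 after PD-0332991) among them. The 20 cytosolic synthetases gave -0.049, 0.34 and 0.47 in these comparisons. EEF2, which moves the ribosome along the message, stood at 1716 CPM in DMSO, 2656 after PD-0332991, 1619 with scrambled siRNA and 1745 in CDK4/6 KD. It was highest in the drug library, and the other 3 libraries were close to each other. EEF2K, the kinase that inhibits EEF2, had 31.8, 50.3, 45.1 and 19.9 CPM, 0.441-fold the scrambled level in CDK4/6 KD and 1.58-fold the DMSO level after PD-0332991.

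The 10 mitochondrial translation factors gave a median log2 fold change of -0.15 in CDK4/6 KD, where 7 were lower and 3 of the 10 at least 1.5-fold lower (30.0%, against 17.4% of all genes), and of 0.0088 after PD-0332991. Of all genes compared in CDK4/6 KD, 49.7% were higher. TUFM, the mitochondrial elongation factor that delivers charged tRNA, had 238 CPM in DMSO, 243 after PD-0332991, 290 with scrambled siRNA and 192 in CDK4/6 KD (0.662-fold). MRRF, the ribosome recycling factor, had a fold change of 0.531 in CDK4/6 KD and 1.12 after PD-0332991. GUF1 was lower in both arms, at 0.656 and 0.659.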
